A study of Mus musculus with 12 samples.

Results

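Pressure overload was examined in the left ventricle of mice with a T497A substitution in protein kinase C alpha (gene Prkca), by comparing 3 libraries made after transverse aortic constriction (TAC) with 3 made after a sham operation. These are 6 of the 12 RNA sequencing libraries of the series, chosen by genotype alone. The other 6 come from wild type ventricle after the same operations. The 4 groups are thus wild type sham, wild type TAC, T497A sham and T497A TAC, each of 3 libraries. Surgery took place at 10 weeks of age, the constriction being sized with a needle of 27 gauge, and ventricles were collected 5 weeks after it, at 15 weeks. The labels give no further allele, agent or promoter in any group, and do not state how the T497A allele was made, whether mice carried 1 or 2 copies of it, or whether each library is a separate animal; p-values therefore measure the spread between these libraries. The question is what TAC still changes in the T497A ventricle.

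Protein kinase C alpha is the main calcium-dependent protein kinase C of heart muscle. It is switched on by calcium and diacylglycerol once its activation loop, turn motif and hydrophobic motif have been phosphorylated, and it is known for its influence on sarcoplasmic reticulum calcium cycling and contractility. In TAC a ligature around the aortic arch makes the left ventricle pump against a raised pressure. In wild type mice this is known to lead to growth of the cardiomyocytes, return of fetal genes such as natriuretic peptides and slow myosin, deposition of matrix by fibroblasts, entry of macrophages and a turn away from fatty acid oxidation.

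The codon that the allele changes is shown because it is what separates the T497A libraries from wild type. In the GENCODE transcript Prkca-201 on GRCm38 (672 coding codons, minus strand of chromosome 11) the codon of the T497A substitution lies in exon 13 at positions 107978267 to 107978269. The reference sequence of the codon, in capitals, with 24 bases on each side (chr11:107978243-107978293), reads 5′ to 3′ on the coding strand:
Prkca T497A codon window: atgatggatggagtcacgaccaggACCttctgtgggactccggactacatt
The labels name the substitution and not its base change, and the count table cannot show which allele a library carries, so Prkca counts do not check the genotype labels. Prkca (ENSMUSG00000050965.14, chromosome 11, 107933387 to 108343928) stood at 38.1, 50.3 and 44.6 CPM (counts scaled to the same library total) in the T497A sham libraries and 52.7, 54.4 and 53.8 CPM after TAC. The 3 TAC libraries lay above the 3 sham libraries, yet the log2 fold change of 0.27 ± 0.13 (SE) did not pass the test (adjusted p = 0.425, edgeR's quasi-likelihood test with p adjusted over all tested genes by the Benjamini-Hochberg method, as everywhere here unless another tool is named). Of 18 listed genes for protein kinase C isoforms and related kinases, none was called with edgeR, 12 had log2 fold changes above 0, a sign shared by 51.2% of all tested genes, and 5 had an unadjusted p under 0.05, all higher. Prkcb, a conventional isoform abundant in immune cells, was at 2.14, 2.14 and 2.42 CPM in sham and 3.64, 3.36 and 3.06 after TAC (0.58 ± 0.20, adjusted p = 0.271). Prkd1, a diacylglycerol-responsive kinase downstream of protein kinase C, was at 7.66, 8.43 and 5.92 and 6.56, 5.03 and 5.79 CPM (-0.34 ± 0.18), with overlapping groups.

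Totals of the 6 T497A libraries lay between 38228148 and 46898344 counts. The first principal component of these 6 libraries (27.7% of the variance) put sham replicates 1 and 3 at -38.4 and -27.8, sham replicate 2 at 0.52, TAC replicates 1 and 3 at 11.0 and 12.7 and TAC replicate 2 at 42.0, so 1 library of each group stood apart from the other two on the same side. The stated cell type is cardiomyocyte, and 11 ventricular cardiomyocyte markers summed to between 61341 and 69902 CPM in sham and 57647 and 59912 after TAC. Markers of other cells were present as well. Summed levels were 1897 to 2256 CPM in sham and 2355 to 2607 after TAC for 14 fibroblast markers, 1121 to 1487 and 1148 to 1449 for 12 endothelial markers, and 259 to 316 and 308 to 409 for 17 macrophage and monocyte markers. Mitochondrially encoded genes took 28.5%, 30.9% and 28.3% of counts after sham and 24.6%, 25.3% and 26.1% after TAC. In such tissue RNA fewer cells of a type and less RNA per cell cannot be told apart, and the part of cell makeup in any result below was not tested.

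TAC left a small set of single genes past the threshold in T497A ventricle and a wider pattern below it. Of 15764 genes tested, 18 were called (0.114%), 10 higher (0.0634%) and 8 lower (0.0507%), and 16 of them, 10 higher and 6 lower, are described here. Their log2 fold changes were between 0.37 and 1.15 in size and their adjusted p between 0.0318 and 0.0497. In all 18 the 3 TAC libraries lay clear of the 3 sham libraries, which over all tested genes was the case for 15.4% (7.71% with TAC higher and 7.68% with TAC lower). The genes that rose encode matrix and matrix-modifying proteins (Mgp, Sulf1, Ecm2), a WNT antagonist (Nkd2), innate immune and interferon response proteins (Tlr2, Ctss, Ifngr1, Slfn2) and stress response proteins (Nupr1, Mthfd2). Those that fell encode enzymes and a transporter of fuel metabolism (Slc27a1, Phkg1, Fbp2, Gpt), a cardiac transcription factor (Tbx5) and an endolysosomal glycoprotein (Creg1). At an unadjusted p under 0.05 there were 1837 genes (11.7%). A large fold did not make a call: 628 genes differed by at least 2-fold, 4 of them were called, and the median SE of the log2 fold change was 0.12 among called genes and 0.16 over all genes.

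**Figure D1:**
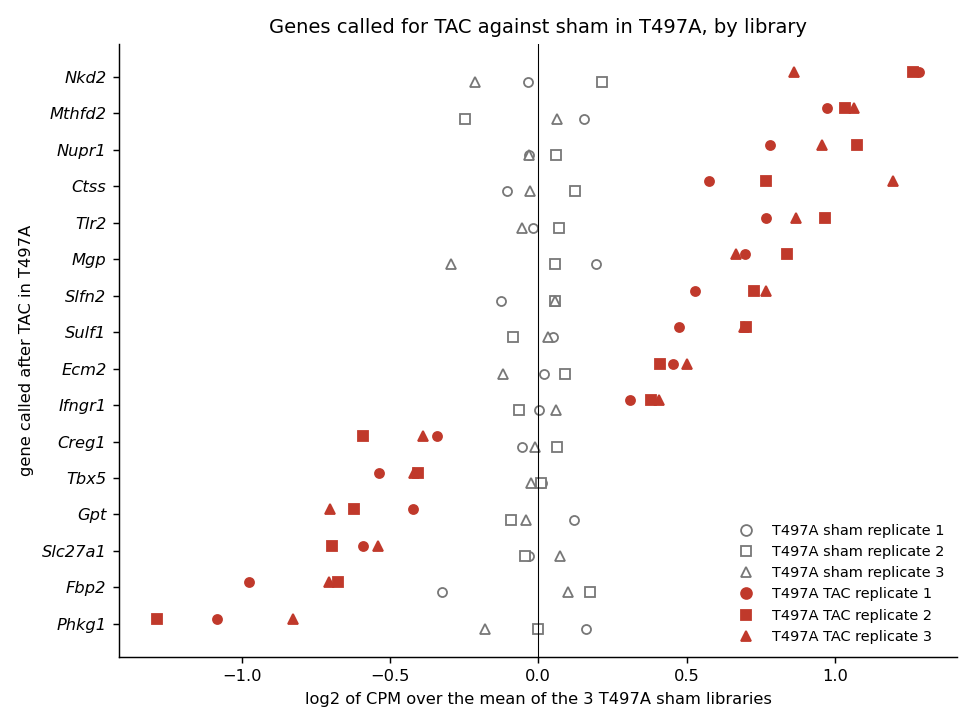
Level of the 16 called genes described here in each T497A library, as log2 of CPM over the mean of the 3 sham libraries (x axis), 1 row per gene (y axis); open grey symbols are sham and filled red symbols TAC libraries, with the shape giving the replicate. Sham and TAC libraries do not overlap for any of the 16 genes.

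The number of calls depended strongly on the tool and on single libraries. DESeq2 on the same genes called 297 (1.96%; 158 higher, 1.04%, and 139 lower, 0.918%), limma-voom 0 (1899 genes at an unadjusted p under 0.05), a fit of the 6 T497A libraries alone 0 (1522 genes), and a fit with a term for the number in the sample title, whose meaning the labels do not state and which is above 100 in all 3 T497A TAC and 1 of 3 T497A sham libraries, 1. Without 1 library in turn the calls numbered 6, 21 and 0 (wild type sham replicates 1 to 3), 0, 30 and 0 (wild type TAC), 6, 0 and 0 (T497A sham) and 37, 0 and 7 (T497A TAC). Across these settings all 18 genes kept their direction and an unadjusted p under 0.05, and their log2 fold changes stayed between 0.772 and 1.21 times the values given here. DESeq2 called all 18.

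Matrix genes gave 3 of the 10 rises. Mgp, the vitamin K-dependent inhibitor of soft tissue calcification secreted by fibroblasts and vascular cells (chromosome 6, 136872435 to 136875823), was at 86.5, 78.5 and 61.6 CPM in the sham libraries and 122, 135 and 119.9 after TAC, a 1.67-fold rise (0.74 ± 0.11). Sulf1, an extracellular enzyme that trims sulfate groups from heparan sulfate chains (chromosome 1, 12692277 to 12861192), went from 25.2, 22.99 and 24.9 to 33.9, 39.7 and 39.4 CPM (1.54-fold), and Ecm2, a matrix glycoprotein (chromosome 13, 49504810 to 49532789), from 36.7, 38.6 and 33.3 to 49.6, 48.1 and 51.3 CPM (1.37-fold). Each of the 3 genes was higher in every TAC library than in every sham library, and their TAC libraries lay close together. They are the called members of 27 matricellular proteins and matrix glycoproteins, of which 26 had log2 fold changes above 0. In 16 of the 27 (59.3%, against 7.71% of all genes) every TAC library lay above every sham library. The list's median was 0.63, against 0.01 over all tested genes.

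The remaining matrix lists ran the same way without calls. All 18 collagens tested had log2 fold changes above 0 (0.46 to 1.87, median 0.67), 6 with non-overlapping groups, as did 12 of 15 proteoglycans (median 0.41) and 19 of 22 crosslinking enzymes, proteases and inhibitors (median 0.44). Counting each gene of these 4 lists once, 75 of 82 were above 0 and 32 (39.0%, against 7.71% of all genes) had every TAC library above every sham library. Ltbp2, a latent TGF-beta binding protein of elastic fibres, was at 6.12, 7.21 and 3.26 CPM in sham and 21.2, 30.8 and 16.8 after TAC (2.06 ± 0.35, adjusted p = 0.0828). Postn, the periostin gene of activated fibroblasts, was at 51.04, 62.8 and 37.04 and 86.6, 208 and 104 CPM (1.403 ± 0.32, adjusted p = 0.164). In both, TAC replicate 2 was the highest library and TAC replicates 1 and 3 lay nearer to the sham libraries.

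Thbs4, a thrombospondin induced by load, was at 8.41, 9.37 and 5.57 CPM in sham and 23.7, 41.2 and 16.98 after TAC (1.81 ± 0.39), and Cilp, a cartilage matrix protein also made by cardiac fibroblasts, at 8.21, 18.4 and 7.13 and 42.1, 76.7 and 32.8 CPM (2.17 ± 0.55). Col8a1, a short-chain network collagen, was at 34.5, 46.8 and 33.1 and 79.9, 121 and 68.4 CPM (1.24 ± 0.26, adjusted p = 0.131). The fibrillar collagen genes had wider spreads. Col1a1 was at 77.5, 157 and 96.1 CPM in sham and 158, 252 and 139 after TAC (0.73 ± 0.30), so that the TAC group overlapped sham replicate 2, and Col3a1 at 164, 365 and 222 and 296, 541 and 272 CPM (0.56 ± 0.35) overlapped too. Aspn, a small proteoglycan that binds TGF-beta, was at 35.1, 35.00 and 36.01 and 49.4, 67.1 and 52.5 CPM (0.67 ± 0.12, adjusted p = 0.0582), and Loxl3, a lysyl oxidase-like collagen crosslinker, at 3.68, 3.88 and 3.78 and 7.81, 6.38 and 5.19 CPM (0.77 ± 0.17).

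With DESeq2, 12 of the 27 matricellular genes, 8 of the 18 collagens, 3 of 15 proteoglycans and 3 of 22 crosslinking genes were called higher and none lower, against 1.04% of all genes called higher by that tool. The collagens DESeq2 called were Col1a2, Col5a2, Col8a1, Col11a1, Col12a1, Col14a1, Col16a1 and Col18a1. Without TAC replicate 2 the medians of the collagen and crosslinking lists were 0.42 and 0.24, and without sham replicate 2 they were 0.95 and 0.65. The proteoglycan median was 0.22 without sham replicate 3 and 0.66 without sham replicate 2. Among 14 fibroblast markers 11 had log2 fold changes above 0 (median 0.35). Every TAC library lay above every sham library in 3 (21.4%, against 7.71% of all genes) and below in 2 (14.3%, against 7.68%). Some markers, Col1a2 and Mfap5 among them, are also in the matrix lists, so markers and lists are not independent. Pdgfra was at 46.01, 59.4 and 43.3 and 81.6, 59.97 and 59.2 CPM and Dcn at 576, 587 and 474 and 648, 648 and 667 CPM. Scara5 was lower at 29.8, 26.8 and 24.8 and 21.04, 15.5 and 14.6 CPM. The part of fibroblasts in the matrix values was not tested.

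Signals that act on fibroblasts gave 1 call. Nkd2, which binds Dishevelled and antagonises canonical WNT signalling (chromosome 13, 73818534 to 73847631), rose 2.22-fold, from 1.49, 1.78 and 1.32 to 3.73, 3.67 and 2.78 CPM (1.15 ± 0.18). The other 16 tested WNT modulators were not called with edgeR, and the list's median was 0.03; Rspo3, an R-spondin that strengthens WNT signals, was at 1.05, 0.8598 and 0.08799 CPM in sham and 0.134, 0.0966 and 0.139 after TAC, where sham replicate 3 was as low as the TAC libraries. Of 21 genes of TGF-beta and activin signalling, 14 had log2 fold changes above 0 (median 0.30) and none was called with edgeR; DESeq2 called Tgfb2 higher. Tgfb3, a TGF-beta ligand, was at 15.7, 14.5 and 15.8 and 22.96, 20.2 and 16.9 CPM (0.39 ± 0.11), and Ltbp1, which stores latent TGF-beta in the matrix, at 83.9, 76.1 and 90.3 and 59.2, 69.7 and 85.01 CPM (-0.23 ± 0.12). Edn3, an endothelin peptide gene, was at 6.52, 5.94 and 3.83 and 13.1, 12.9 and 12.4 CPM (1.24 ± 0.26, adjusted p = 0.107), with 3 nearly equal TAC libraries, and Angpt1, the Tie2 ligand that stabilises vessels, was at 45.7, 47.4 and 62.1 and 33.04, 35.3 and 34.9 CPM (-0.59 ± 0.15). Among 35 growth factor genes of vessels and fibroblasts the median was 0.02 and 18 were above 0.

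Innate immune and interferon genes gave 4 calls, all higher after TAC. Tlr2, a cell surface receptor for bacterial lipoproteins and for molecules released from damaged tissue (chromosome 3, 83836272 to 83841767), went from 3.14, 3.33 and 3.06 to 5.399, 6.21 and 5.79 CPM (1.83-fold, 0.87 ± 0.15). Ctss, the lysosomal protease that cleaves the invariant chain in antigen presenting cells (chromosome 3, 95526786 to 95556403), went from 11.9, 13.9 and 12.5 to 19.1, 21.7 and 29.3 CPM (1.83-fold, 0.87 ± 0.15). Ifngr1, the ligand-binding chain of the interferon gamma receptor (chromosome 10, 19591949 to 19610229), rose 1.29-fold from 48.00, 45.7 and 49.9 to 59.3, 62.3 and 63.5 CPM, and Slfn2, an interferon-induced Schlafen protein (chromosome 11, 83065112 to 83070678), rose 1.599-fold from 5.62, 6.38 and 6.38 to 8.84, 10.1 and 10.4 CPM. The sham libraries of Tlr2 and Slfn2 differed little from each other, and the TAC libraries of Ctss had the widest spread of the 4 genes.

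The list of interferon receptors and interferon-stimulated genes lay above 0 almost throughout. Of 32 tested, 30 had log2 fold changes above 0 (median 0.41), 16 had an unadjusted p under 0.05, all higher, and 10 (31.3%, against 7.71% of all genes) had non-overlapping groups with TAC higher. Over all 15764 genes, 944 were higher at an unadjusted p under 0.05. Ifit3, an interferon-induced RNA-binding protein gene with a near-identical neighbour that can share its reads, was called by DESeq2 and was at 5.97, 8.04 and 5.21 CPM in sham and 8.32, 13.8 and 15.5 after TAC (0.97 ± 0.23), and Oasl2, an oligoadenylate synthetase-like gene also called by DESeq2, at 5.67, 8.21 and 5.63 and 9.01, 14.4 and 12.6 CPM (0.89 ± 0.24). Ifngr2, the signalling chain of the same receptor as Ifngr1, was at 228, 236 and 262 and 206, 223 and 231 CPM (-0.14 ± 0.08), 1 of the 2 members below 0. All 9 class II antigen presentation genes were above 0 (median 0.41), 24 of 29 innate immune receptor and signalling genes (median 0.26) and 11 of 13 complement genes (median 0.37). Without TAC replicate 2 the medians of the innate and complement lists were 0.16 and 0.15, and without sham replicate 2 they were 0.40 and 0.48; without sham replicate 3 that of the complement list was 0.24. Il1r1, the interleukin 1 receptor, was at 14.9, 16.1 and 14.2 and 20.04, 19.1 and 20.9 CPM (0.41 ± 0.10, adjusted p = 0.158).

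Single libraries weighed on the class II genes. Cd74, the invariant chain gene, was at 57.3, 70.1 and 62.9 CPM in sham and 59.4, 80.8 and 117 after TAC, and H2-Aa at 25.6, 27.5 and 26.5 and 23.5, 33.9 and 52.2 CPM, so TAC replicate 3 was highest and TAC replicate 1 lay within or below the sham range. Without TAC replicate 3 the list's median was 0.12. Among 17 macrophage and monocyte markers 14 had log2 fold changes above 0 (median 0.38, and 0.23 without TAC replicate 2). In 7 (41.2%, against 7.71% of all genes) every TAC library lay above every sham library. Among these were Mpeg1 at 13.4, 12.9 and 12.98 and 14.9, 27.1 and 25.9 CPM and C1qb at 18.6, 21.4 and 18.4 and 23.9, 32.5 and 27.98 CPM. C1qb is also in the complement list, so these markers and that list are not independent. Cd163, a marker of resident macrophages, was at 18.96, 13.4 and 17.3 and 10.3, 13.6 and 14.5 CPM (-0.37 ± 0.21). The part of macrophage number in the immune values was not tested.

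The promoter of Ctss is shown because it holds, alone among the 12 called genes with an entry in the promoter table, the core letters of an interferon-stimulated response element (GAAA, any 2 bases, GAAA), searched on both strands of the 250 bases before the start and chosen after the values were seen. It begins 21 bases upstream of the start, in capitals in the 120 bases before it (RefSeq, GRCm38.p6, plus strand, chr3:95526666-95526785):
Ctss promoter: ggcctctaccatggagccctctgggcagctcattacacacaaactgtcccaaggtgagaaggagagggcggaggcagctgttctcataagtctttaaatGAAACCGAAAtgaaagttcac
Of 32851 such windows, 2.98% hold this motif. A match is a description of the letters and not of binding.

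Stress response genes were led by Nupr1 and Mthfd2. Nupr1, a small chromatin-associated stress protein and target of ATF4 (chromosome 7, 126623249 to 126630861), rose 1.92-fold from 2.29, 2.44 and 2.29 to 4.02, 4.93 and 4.54 CPM (0.94 ± 0.14, adjusted p = 0.0318). Mthfd2, the mitochondrial folate enzyme that supplies formate (chromosome 6, 83305691 to 83325908), rose 2.03-fold from 2.41, 1.83 and 2.27 to 4.26, 4.45 and 4.54 CPM (1.02 ± 0.17). Among 22 tested genes of the integrated stress response and one-carbon metabolism, 15 had log2 fold changes above 0 (median 0.28, and 0.11 without TAC replicate 3). Shmt2, the serine hydroxymethyltransferase of mitochondria that acts before Mthfd2, went the other way, at 29.1, 27.5 and 33.7 CPM in sham and 23.7, 26.3 and 24.9 after TAC (-0.27 ± 0.09, adjusted p = 0.276). Gdf15, a secreted stress cytokine, was at 0.299, 0.555 and 0.396 and 1.12, 0.532 and 1.205 CPM (1.196 ± 0.48), where TAC replicate 2 lay within the sham range.

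Unfolded protein response and heat shock genes did not share this direction: 7 of 25 were above 0 (median -0.11, between -0.25 without TAC replicate 3 and -0.02 without TAC replicate 1), none was called with edgeR or DESeq2, and Manf, an endoplasmic reticulum stress-induced secreted protein, was at 21.2, 24.9 and 21.5 CPM in sham and 18.6, 16.8 and 20.9 after TAC (-0.26 ± 0.10). The Nupr1 promoter is printed because Nupr1 is the called gene whose window holds TGATGNAA, the core of the element bound by C/EBP and ATF dimers, searched on both strands and also chosen after the values were seen. Its reverse complement, in capitals, begins 110 bases upstream of the start (RefSeq, GRCm38.p6, minus strand, chr7:126625471-126625590):
Nupr1 promoter: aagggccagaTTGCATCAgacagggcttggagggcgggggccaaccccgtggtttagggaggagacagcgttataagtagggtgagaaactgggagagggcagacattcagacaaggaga
The motif is in 3.45% of all such windows. Mthfd2 has an entry without it, and no called gene with an entry held CAAGGTCA, an oestrogen-related receptor element, which is in 1.33% of windows.

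Genes of fuel use gave 4 of the 6 falls described here. Slc27a1, a fatty acid transport protein of the cell membrane (chromosome 8, 71568882 to 71587302), fell 1.52-fold, from 93.8, 92.9 and 101 to 63.6, 59.2 and 65.9 CPM (-0.61 ± 0.09, adjusted p = 0.0318). Phkg1, the catalytic subunit of muscle phosphorylase kinase, which starts glycogen breakdown (chromosome 5, 129863421 to 129898549), fell 2.07-fold, from 23.1, 20.6 and 18.3 to 9.75, 8.48 and 11.7 CPM (-1.05 ± 0.15). Its annotated exons share 9.68% of their bases with Sumf2 on the opposite strand, and the use of strand in the counting is not given in the sources used here.

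Fbp2, the muscle form of fructose bisphosphatase (chromosome 13, 62836877 to 62858422), fell 1.72-fold from 21.1, 29.8 and 28.3 to 13.4, 16.5 and 16.2 CPM, and Gpt, the alanine aminotransferase that links pyruvate and alanine (chromosome 15, 76695716 to 76699686), fell 1.49-fold from 30.5, 26.3 and 27.3 to 20.9, 18.2 and 17.2 CPM. Pfkfb1, a regulator of glycolytic flux, was at 17.9, 10.1 and 18.5 and 6.404, 6.19 and 7.64 CPM (-1.202 ± 0.29, adjusted p = 0.158).

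Across the energy lists the differences were small and nearly all in 1 direction. Of 37 genes of fatty acid uptake and oxidation, 35 had log2 fold changes below 0 (48.8% of all genes; median -0.29) and 21 (56.8%, against 7.68% of all genes) had every TAC library below every sham library. The tricarboxylic acid cycle and branched-chain catabolism list had 35 of 37 below 0 (median -0.22) and 29 without overlap. All 35 nuclear subunits of complex I lay between -0.27 and -0.06, 29 of them without overlap, and all 39 of complexes II to V between -0.36 and -0.11, 36 without overlap. All 13 mitochondrially encoded genes were lower without overlap (-0.61 to -0.21); nuclear copies of these genes can take or remove some of their reads, so their counts are uncertain. With each gene of the 5 lists counted once, 153 of 157 were below 0 and 124 (79.0%) did not overlap, with Slc27a1 the single called gene.

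The examples that follow had the lowest p of their list in 1 direction, so they do not show the usual spread. Atp5g3, which encodes a c subunit of ATP synthase, was at 916, 902 and 906 CPM in sham and 759, 741 and 765 after TAC (-0.27 ± 0.06, adjusted p = 0.107), and Ndufb8, a complex I subunit, at 321, 313 and 323 and 272, 261 and 272 CPM (-0.25 ± 0.06, adjusted p = 0.115). Ppm1k, the phosphatase that activates branched-chain keto acid breakdown, was at 222, 194 and 203 and 148, 128 and 177 CPM (-0.45 ± 0.10). Bdh1, a mitochondrial ketone body dehydrogenase, was higher after TAC, at 243, 186 and 201 CPM in sham and 269.8, 269 and 260.3 after TAC (0.34 ± 0.10, adjusted p = 0.209). DESeq2 called 16 of the 37 fatty acid genes, 13 of the 39 subunits of complexes II to V, 8 of the 37 tricarboxylic acid cycle genes and 4 of the 35 complex I subunits lower and none higher, against 0.918% of all genes called lower by that tool.

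Regulators of these genes had smaller median differences. Of 23 regulators of mitochondria, 18 were below 0 with a median of -0.09. Esrra, an orphan nuclear receptor of mitochondrial genes, was at 63.4, 66.04 and 72.7 CPM in sham and 63.1, 56.2 and 50.9 after TAC (-0.25 ± 0.09), and Ppargc1a, the coactivator of mitochondrial biogenesis, at 179, 141 and 157 and 126, 117 and 177 CPM (-0.19 ± 0.20). Cpt1b, the muscle carnitine transferase that admits fatty acids to mitochondria, was at 11.05, 11.7 and 12.3 and 10.2, 9.83 and 12.3 CPM (-0.12 ± 0.11). Glucose uptake, glycolysis and glycogen genes had 31 of 44 below 0 (48.8% of all genes) and a median of -0.07 (-0.12 without sham replicate 2). Every TAC library lay below every sham library in 13 (29.5%, against 7.68% of all genes) and above in 4 (9.09%, against 7.71%). With edgeR 3 were called lower and 0 higher, where 0.0507% of all genes were called lower. DESeq2 called 6 lower and 0 higher, against 0.918% of all genes called lower. Pfkp, the platelet phosphofructokinase, was at 28.6, 41.6 and 37.4 and 55.1, 61.1 and 44.9 CPM (0.58 ± 0.24).

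Markers of skeletal muscle differed between the sham libraries and are given beside the muscle enzymes. Of 12 tested, 11 had log2 fold changes below 0 and none was called with edgeR; Myh4, a fast myosin of limb muscle, was at 10.6, 10.7 and 0.748 CPM in sham and 0.848, 0.0483 and 0.0463 after TAC, and Atp2a1 at 4.08, 4.47 and 0.572 and 0.469, 0.266 and 0.533 CPM. Sham replicate 3 was the lowest sham library for both, but not for every marker. Mylpf was at 0.821, 1.89 and 0.99 CPM in sham and 0.491, 0.121 and 0.44 after TAC. Pvalb was at 0.498, 1.997 and 0.748 and 0.312, 0.0483 and 0.232 CPM. In 7 of the 12 (58.3%, against 7.68% of all genes) every TAC library lay below every sham library. DESeq2, which called 0.918% of all genes lower, called Pvalb and Eno3 lower. Eno3 (means of 1112 CPM in sham and 910 after TAC) and Ckm (999 and 883 CPM) are among the 7 without overlap. Eno3 is also in the glucose list and Ckm among the cardiomyocyte markers, so neither marks skeletal muscle alone. The part of skeletal muscle RNA in the values of Phkg1, Fbp2 and the other fuel genes was not tested. Cardiomyocyte markers lay lower as well, 10 of 11 below 0 with a median of -0.20, as did all 7 tested Schwann cell and nerve markers (median -0.36); their part in the fuel gene values was not tested.

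Tbx5 and Creg1 fell by less than 2-fold. Tbx5, a T-box factor of chamber and conduction system identity (chromosome 5, 119832668 to 119885219), fell 1.37-fold, from 37.4, 37.4 and 36.5 to 25.5, 27.98 and 27.7 CPM (-0.45 ± 0.07). It was the called member of 26 cardiac transcription factors, of which 10 were above 0; Tbx20, a T-box factor of cardiomyocytes, was at 145, 174 and 154 CPM in sham and 193, 195 and 184 after TAC (0.27 ± 0.11, adjusted p = 0.339). Creg1, a glycoprotein of endosomes and lysosomes (chromosome 1, 165763746 to 165775308), fell 1.35-fold from 134, 146 and 138 to 110.1, 92.6 and 107 CPM. The 24 lysosomal genes as a list had a median of -0.01, with changes both ways. Every TAC library lay above every sham library in 5 (20.8%, against 7.71% of all genes) and below in 4 (16.7%, against 7.68%).

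The classical hypertrophy markers were higher after TAC in T497A ventricle by estimates with wide errors. Nppa, the atrial natriuretic peptide gene, was at 27.3, 48.9 and 51.7 CPM in sham and 97.1, 252 and 124 after TAC (1.89 ± 0.52, adjusted p = 0.226). Acta1, the skeletal actin gene that is reused in stressed ventricle and shares near-identical sequence with Actc1, was at 335, 405 and 342 and 1001, 1871 and 671 CPM (1.71 ± 0.63, adjusted p = 0.346). Both had non-overlapping groups with TAC replicate 2 highest.

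Myh7, the slow myosin of fetal mouse ventricle, was at 113, 154 and 491 CPM in sham and 455, 772 and 1218 after TAC (1.69 ± 0.63), and TAC replicate 1 lay below sham replicate 3. Nppb, the B-type natriuretic peptide gene, was at 59.8, 128 and 114 and 144, 193 and 175 CPM (0.76 ± 0.58), and Ankrd1, a stress-induced sarcomere and nuclear protein, at 1228, 1858 and 1619 and 2843, 3674 and 2714 CPM (0.97 ± 0.31). Myh6, the adult myosin, was at 22127, 17778 and 23173 and 18909.7, 17772 and 17624 CPM (-0.22 ± 0.14); Myh6 and Myh7 are near-identical neighbours, so reads can be split between them. Of the 22 fetal and hypertrophic genes 17 were above 0 (median 0.38), 11 had non-overlapping groups with TAC higher (7.71% of all genes) and none was called with edgeR, while DESeq2, which called 1.04% of all genes higher, called Nppa, Sprr1a and Xirp2. Sprr1a, a small proline-rich stress protein, was at 0, 0 and 0.0879 CPM in sham and 0.268, 0.483 and 0.417 after TAC. With sham levels near 0, it could pass the expression filter only through libraries where it is higher, so its call carries little weight. Across 17 alternative fits its log2 fold change ranged from 2.93 to 7.03.

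**Figure D2:**
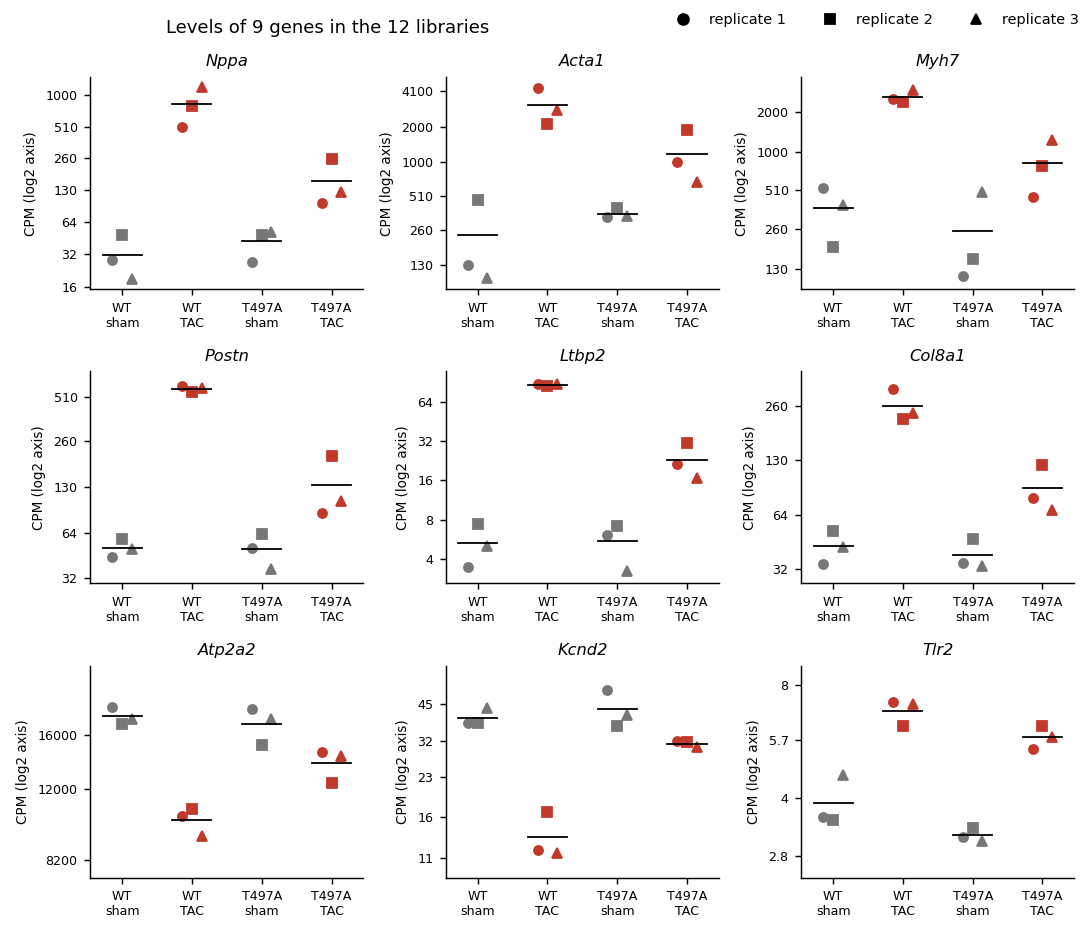
CPM on a log2 axis (y) of 9 genes in the 12 libraries by group (x); symbols give the replicate and bars the group mean. In T497A the TAC libraries of Nppa, Acta1, Postn, Ltbp2, Col8a1 and Tlr2 lie above the sham libraries and those of Atp2a2 and Kcnd2 below them, while those of Myh7 overlap.

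Atrial genes other than Nppa did not move with it: 6 of the 7 tested atrial markers had log2 fold changes below 0, and Myl7, the atrial light chain, was at 22.5, 10.6 and 44.8 CPM in sham and 2.32, 14.3 and 20.4 after TAC, uneven within both groups. Their part in the Nppa values was not tested.

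Calcium cycling and channel genes gave no edgeR call. Atp2a2, which encodes the SERCA2 calcium pump, was at 18449, 15169.9 and 17474 CPM in sham and 14656, 12361 and 14318 after TAC (-0.31 ± 0.09, adjusted p = 0.217), and Pln, its inhibitor phospholamban, at 2016, 1861 and 2068 and 1745, 1481 and 1869 CPM (-0.22 ± 0.10). Ryr2, the calcium release channel, was at 3349, 2382 and 2470.0 and 2916, 2297 and 2556 CPM (-0.08 ± 0.12), with overlapping groups. Of 29 calcium genes 22 were below 0 with a median of -0.11 (-0.17 without sham replicate 2 and -0.06 without sham replicate 1) and none was called with edgeR or DESeq2.

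Among 32 ion channel genes the median was -0.07 (-0.15 without TAC replicate 1 and -0.02 without TAC replicate 2). Kcnd2, the pore subunit of the fast transient outward potassium current, was at 51.1, 36.8 and 40.7 CPM in sham and 32.04, 31.7 and 30.3 after TAC (-0.45 ± 0.14, adjusted p = 0.246), and its partner Kcnip2 at 181, 138 and 159 and 118, 129 and 154 CPM (-0.25 ± 0.13). The water channel gene Aqp4 was at 15.95, 10.3 and 11.1 and 5.09, 4.301 and 4.91 CPM (-1.38 ± 0.31, adjusted p = 0.125). The 31 sarcomere and Z-disc genes had a median of -0.10 (-0.06 without sham replicate 3); Tnni3, cardiac troponin I, was at 2945, 2775 and 2959 and 2250.0, 2150.4 and 2450.4 CPM (-0.34 ± 0.08, adjusted p = 0.117).

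Below the threshold, 407 further genes of the 15764 tested combined an unadjusted p under 0.01, non-overlapping groups and a mean of at least 5 CPM. They were 169 higher and 238 lower, not counting genes with predicted-gene symbols (Gm and digits, or ending in Rik). The largest rise among them was that of Fmn1, a formin that nucleates actin filaments, at 2.69, 3.22 and 2.24 CPM in sham and 41.6, 5.48 and 44.2 after TAC (3.49 ± 0.98); TAC replicate 2 was far below the other two TAC libraries, the reverse of the matrix genes. Nlrc3, an inhibitory NOD-like receptor, was at 2.14, 3.63 and 3.26 and 7.79, 12.4 and 6.35 CPM (1.56 ± 0.32). Mir6236, annotated as a microRNA gene, was at 27.7, 35.1 and 19.9 and 54.8, 66.9 and 73.3 CPM (1.24 ± 0.36); these mRNA libraries do not measure the mature microRNA.

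Among the falls in that set, Ces1d, a carboxylesterase that hydrolyses stored lipid, was at 149, 98.8 and 97.4 CPM in sham and 64.9, 46.4 and 60.99 after TAC (-1.004 ± 0.29), and Efemp1, a fibulin of elastic tissue, at 13.1, 9.15 and 12.8 and 4.35, 6.52 and 6.93 CPM (-0.98 ± 0.21). Slc40a1, the iron exporter ferroportin, was at 36.6, 42.9 and 25.8 and 20.04, 21.3 and 15.9 CPM (-0.88 ± 0.26), and G0s2, an inhibitor of lipolysis, at 34.6, 12.9 and 18.2 and 12.1, 10.8 and 12.02 CPM (-0.91 ± 0.28), where sham replicate 1 was well above the other two sham libraries. Pcp4l1 was at 146, 158 and 183 and 108, 58.5 and 89.04 CPM (-0.93 ± 0.19, adjusted p = 0.106). Dusp23, a small phosphatase, Smim5, a small membrane protein, and Amy1, an amylase, had values of -0.96 ± 0.29, -0.70 ± 0.18 and -0.69 ± 0.17.

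**Figure D3:**
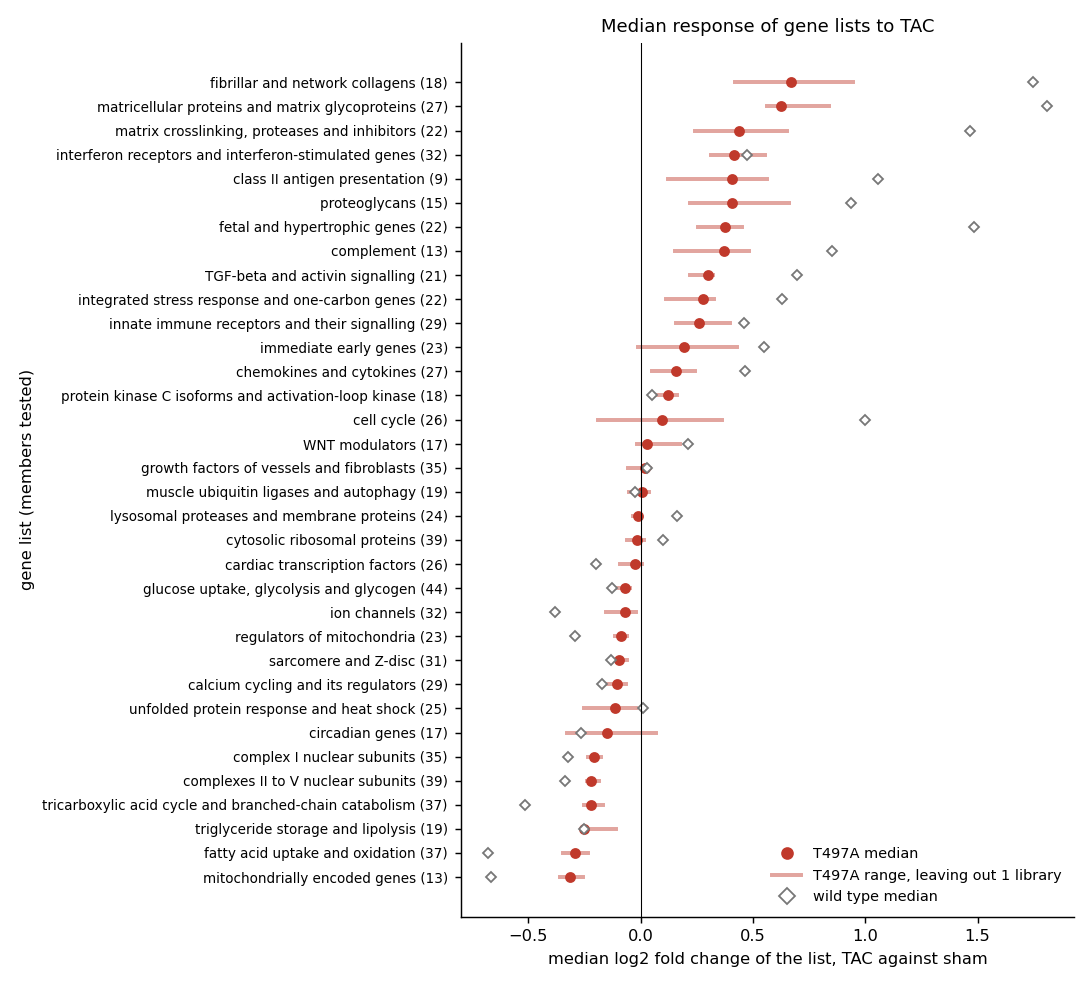
Median log2 fold change of TAC against sham (x axis) for 34 gene lists (y axis, members tested in brackets): red points are T497A, red bars the range of T497A medians when 1 T497A library is left out, open diamonds wild type. Collagens (0.67) and matricellular genes (0.63) have the highest T497A medians and fatty acid (-0.29) and mitochondrially encoded genes (-0.31) the lowest.

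Wild type libraries show how the T497A values compare with the response of mice without the substitution; the comparisons share no libraries and share the estimate of spread. In wild type 3936 genes were called (25.0%; 1943 higher, 12.3%, and 1993 lower, 12.6%), and in T497A 87.0% of them had the same direction, against 67.3% of all tested genes. Among the 1019 genes called at least 2-fold in wild type the share was 91.2%. The 666 of these that rose had a median log2 fold change of 1.56 in wild type and 0.53 in T497A, and the 353 that fell had -1.44 and -0.43. Because these genes were chosen by their size in wild type, the wild type medians are not independent of that choice. Of the 1019, 8.83% had the opposite sign in T497A, 27.1% reached up to 25% of the wild type log2 fold change, 46.3% reached 25 to 50%, 14.1% reached 50 to 75%, 2.94% reached 75 to 100% and 7 genes exceeded it.

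**Figure D4:**
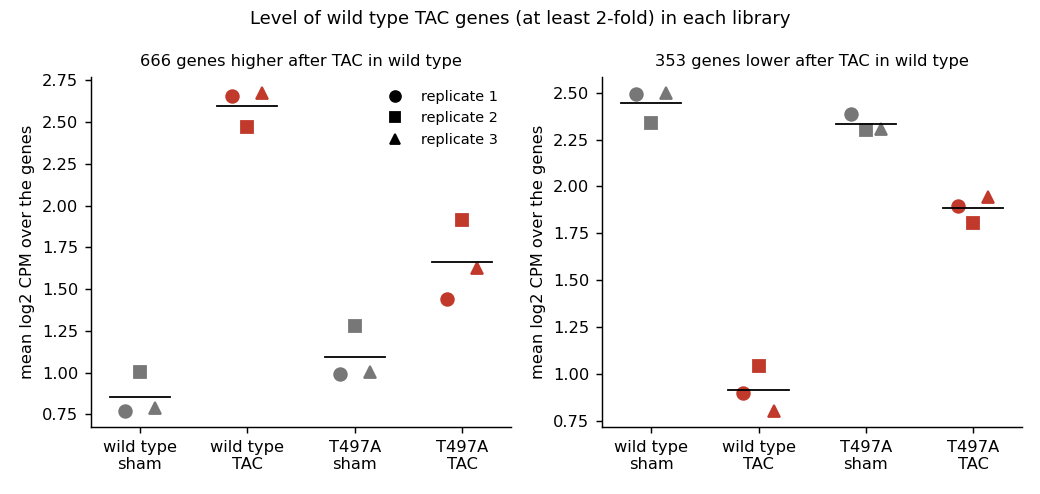
Mean log2 CPM (y axis) of the 666 genes that rose and the 353 that fell at least 2-fold after TAC in wild type, in each of the 12 libraries by group (x axis); symbols give the replicate and bars the group mean. T497A TAC libraries lie between T497A sham and wild type TAC libraries in both panels, with TAC replicate 2 highest (1.91) among the T497A TAC libraries on the left.

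Per library, the mean log2 CPM of the 666 genes was 0.99, 1.28 and 1.01 in T497A sham, 1.44, 1.91 and 1.62 in T497A TAC and 2.47 to 2.67 in wild type TAC. For the 353 genes it was 2.38, 2.30 and 2.31 in T497A sham, 1.90, 1.81 and 1.95 in T497A TAC and 0.80 to 1.04 in wild type TAC. No T497A TAC library reached a wild type TAC library in either set. TAC replicate 2 was the highest T497A TAC library for 62.6% of the 666 genes, and sham replicate 2 the highest sham library for 58.1%. Without TAC replicate 2 the share of the 3936 genes with the same direction was 79.8%, and without sham replicate 1 it was 82.3%.

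All 18 called genes were also called in wild type in the same direction, and for 17 of them the wild type change was larger. Tlr2 was the exception, with 0.82 ± 0.15 in wild type and 0.87 ± 0.15 in T497A; its interaction, the T497A response minus that of wild type, was 0.05 ± 0.21 (adjusted p = 0.932). For 5 of the 16 described the interaction passed the test. Mgp changed by 2.05 in wild type and 0.74 in T497A (interaction -1.31 ± 0.16, adjusted p = 0.00467) and Nupr1 by 2.47 and 0.94 (-1.52 ± 0.20, adjusted p = 0.00467). The interactions of Nkd2, Sulf1 and Gpt were -1.25 ± 0.25, -0.58 ± 0.13 and 0.86 ± 0.14, all toward a smaller response in T497A.

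**Figure D5:**
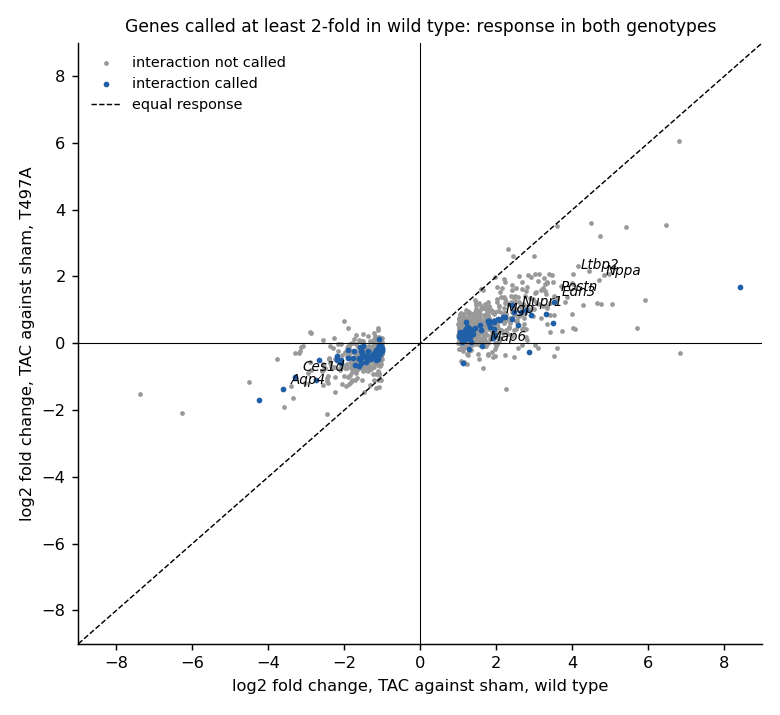
Log2 fold change of TAC against sham in T497A (y axis) against that in wild type (x axis) for the 1019 genes called at least 2-fold in wild type; blue points have a called interaction and the dashed line marks an equal response. Most points lie between the horizontal axis and the dashed line, and 91.2% have the same sign in both genotypes.

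Over all genes 248 interactions were called (1.57%), 141 higher (0.894%) and 107 lower (0.679%). All 248 were genes called in wild type; 207 had the same sign and a smaller size in T497A, 41 the opposite sign and 0 the same sign with a larger size. Among the 41, the largest T497A log2 fold change was 0.59 in size and 1 had an unadjusted p under 0.05 there. The 5 of them with the smallest interaction p were Map6, a microtubule stabiliser (1.62 in wild type and -0.09 ± 0.15 in T497A), Atpaf1, an assembly factor of ATP synthase (-0.63 and 0.02 ± 0.07), Pgap1, which remodels GPI anchors (-0.86 and 0.06 ± 0.11), Plod3, a collagen lysyl hydroxylase (0.68 and -0.02 ± 0.08), and the orphan receptor gene Gpr157 (-0.62 and 0.06 ± 0.08). Map6, for example, was at 4.45, 3.86 and 4.11 CPM in T497A sham, 4.62, 3.29 and 3.78 in T497A TAC and 9.64, 11.02 and 10.95 in wild type TAC. The number of interaction calls was 859 with DESeq2 and 70 with the title number as a term. Leaving out wild type libraries it was 77, 208 and 37 (sham) and 135, 295 and 44 (TAC), and leaving out T497A libraries 230, 93 and 76 (sham) and 77, 518 and 68 (TAC).

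Gene groups differed in how close the 2 genotypes' medians lay. Collagens had a median of 0.67 in T497A and 1.75 in wild type, matricellular genes 0.63 and 1.81 and fetal genes 0.38 and 1.48. Called interactions numbered 2 of 18, 4 of 27 and 3 of 22 in these lists. For interferon genes the medians were 0.41 and 0.47, with 0 of 32 interactions called (edgeR). For triglyceride storage and lipolysis genes they were -0.25 and -0.25, with 0 of 19. Over all genes 1.57% of interactions were called, a share at which lists of these sizes can hold none. Leaving out 1 T497A library put the T497A median of the lipolysis list between -0.23 and -0.11 (without sham replicate 2), in each case nearer to 0. In the fatty acid list, with -0.29 and -0.68, 5 interactions were called (Acsl1, Acsl6, Acadm, Etfa, Acaa2), and in the tricarboxylic acid cycle and branched-chain list, with -0.22 and -0.52, 7 were, among them the branched-chain genes Bckdhb, Dbt and Ppm1k. Interactions were called for 3 of 29 calcium genes and 4 of 32 channel genes. Among them were Ryr2 (0.78 ± 0.17), Jph1, a junctophilin (0.42 ± 0.10), Kcnd2 (1.12 ± 0.20), Kcnip2 (0.84 ± 0.18) and Aqp4 (2.22 ± 0.46). Whether one list differed between the genotypes more than another was not tested.

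Across 15764 genes the log2 fold changes of the 2 genotypes had a Pearson r of 0.42 and a Spearman rho of 0.47, over genes that are not independent and that share library preparation. DESeq2's 297 genes included 290 with the direction of the wild type estimate, 254 of them called in wild type, and 0 called there in the opposite direction.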

How the data were processed

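Bulk left ventricular RNA of 12 libraries (4 groups of 3) was sequenced single-end, per the labels' protocols. The deposited table holds raw counts per gene. The submitters' processing notes name mm10, STAR 2.7.3a, Trim Galore 0.6.4, limma 3.50.3, Subread 1.6.3 and featureCounts; not given in the sources used here are their settings, the annotation release, strand use and the handling of reads with several matches.

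The authors' counts of 15764 of 55401 genes passed edgeR's expression filter (minimum count 10). One edgeR 4.0.16 quasi-likelihood model (R 4.3.3, TMM scaling, robust) covered the 4 groups, with adjusted p under 0.05 as the threshold and no covariate. CPM use TMM factors, SE is the log2 fold change over the square root of F, and the biological coefficient of variation was 17.2%. Total counts were 36862004 to 46898344, and replicates of every group differed by more than counting noise. DESeq2 1.42.0, limma-voom (limma 3.58.1), other scalings and filters, the title number as a term, T497A libraries alone and leaving out each library were alternatives. The scripts were tested on simulated data.

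The genes named, apart from a few not reported here, are those called, the 10 largest uncalled rises and falls with an unadjusted p under 0.01, at least 5 CPM and no overlap, the lowest p in each direction of each list, fixed markers, and the 5 lowest interaction p among opposite or larger responses. Predicted-gene symbols were left out of those uncalled rises and falls. Other genes named with values, such as cell type markers and genes called by DESeq2 alone, were chosen after their values were seen. The comparison, lists and markers were chosen with earlier results of these data known. Coordinates are from GENCODE vM21 (GRCm38), matched for 15751 tested genes.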

Additional observations from a re-analysis of the deposited data

Results flagged for a closer look

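Of 105 named genes, 21 had a TAC response that differed between T497A and wild type by the interaction test (edgeR's quasi-likelihood test, adjusted p under 0.05). Values here are the T497A minus the wild type log2 response.

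For 15 genes the estimates of both genotypes had the same sign and the T497A size was smaller. Among genes lower after TAC the differences were 2.29 for Ces1d, 2.22 for Aqp4, 1.12 for Kcnd2, 0.95 for Ppm1k, 0.86 for Gpt, 0.84 for Kcnip2, 0.78 for Ryr2 and 0.42 for Jph1. Among genes higher after TAC they were -2.28 for Edn3, -1.52 for Nupr1, -1.39 for Loxl3, -1.31 for Mgp, -1.25 for Nkd2, -0.79 for Tgfb3 and -0.58 for Sulf1.

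Opposite signs were found for 6 genes. Xirp1, which encodes an actin-binding protein of the intercalated disc, was at 361, 297 and 288 CPM in T497A sham and 292, 258 and 246 CPM in T497A TAC libraries (-0.25 ± 0.13 SE), with overlapping groups, against 0.62 ± 0.13 in wild type, a difference of -0.87.

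Map6, Plod3, Atpaf1, Pgap1 and Gpr157 differed by -1.71, -0.70, 0.65, 0.92 and 0.69. Their T497A log2 fold changes lay between -0.09 and 0.06, each within its own SE of 0.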

How the results depend on the processing

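Against 18 T497A calls (10 higher, 8 lower), DESeq2 gave 297 (158 higher, 139 lower), no filter on low counts 331 (175 and 156), limma-voom 0 (0 and 0; 1899 genes at an unadjusted p under 0.05), the 6 T497A libraries alone 0 (0 and 0; 1522 genes) and the title number as a term 1 (1 and 0). Further DESeq2 fits chosen after seeing the data gave 80 without T497A TAC replicate 2 and 114 with the title number. Leaving out 1 library gave 0 to 37 calls (0 to 22 higher, 0 to 15 lower). Other scalings, the filter of 10 counts in 3 libraries and removal of mitochondrial genes gave 17 or 18. Against 248 interaction calls, DESeq2 gave 859, no filter 898, the title number 70 and leaving out 1 library 37 to 518. The share of wild type calls with the same direction in T497A, 87.0%, was 91.2% for calls of at least 2-fold and 79.8% to 87.4% without 1 library. The cause of these differences was not tested.

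Among the 105 named genes, 1565 of the recomputed values kept direction and side of the threshold, and 175 kept direction and lost the call. Only the 16 called genes described could lose a call, so all 175 are theirs, and the 1565 are mostly values of uncalled genes. Another 34 values kept direction and gained a call, and 10 changed sign, none of them in a called gene. Across 17 alternative fits, those without 1 library among them, Atpaf1 ranged from -0.016 to 0.050 (-0.016 without T497A sham replicate 3 and -0.0053 without TAC replicate 1), C4b from -0.18 to 0.16, Gpr157 from -0.0061 to 0.13, Map6 from -0.23 to 0.019, Pgap1 from -0.017 to 0.14, Ryr2 from -0.17 to 0.093 (0.0012 without TAC replicate 2) and Sdc4 from -0.22 to 0.065. Plod3 was 0.033 with the title number as a term.

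No paired analysis was possible because the titles of all 12 samples end in 1 and the same replicate label, which pairs nothing; the numbers used here follow accession order. With 3 libraries a group and adjusted p near the threshold, the set of called genes is small and unstable, and a gene without a call is not shown to be without a response.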

Other observations

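Growth and rhythm genes held no edgeR or DESeq2 call in T497A ventricle and varied by library. Of 26 cell cycle genes, 17 had log2 fold changes above 0 with a median of 0.09, which was -0.19 without TAC replicate 2 and 0.36 without TAC replicate 1. Ccnd2, a D-type cyclin, was at 202, 182 and 227 CPM in sham and 269, 328 and 244 after TAC (0.46 ± 0.19 SE), while Pcna, the sliding clamp of DNA replication, was at 22.4, 18.3 and 21.01 and 13.7, 18.4 and 14.5 CPM (-0.40 ± 0.12). Myc, a growth-related transcription factor among the immediate early genes, was at 1.79, 2.496 and 1.63 and 2.01, 5.15 and 3.34 CPM (0.83 ± 0.33), with TAC replicate 2 highest. The 17 circadian genes had a median of -0.15, between -0.33 without TAC replicate 3 and 0.07 without sham replicate 3.

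Protein synthesis and turnover genes had medians near 0, at -0.02 for 39 cytosolic ribosomal proteins and 0.01 for 19 muscle ubiquitin ligase and autophagy genes. Rpl3l, the muscle-specific form of ribosomal protein L3, was at 222, 169 and 199 CPM in sham and 168, 124 and 139.6 after TAC (-0.45 ± 0.16), and Rpl3 at 36.9, 44.99 and 54.8 and 41.9, 63.04 and 60.4 CPM (0.27 ± 0.15), where the groups overlapped. Trim63, the muscle ubiquitin ligase MuRF1, was at 114, 159.6 and 153 and 156, 181 and 165 CPM (0.24 ± 0.12). C4b, a complement component, was at 12.6, 19.6 and 13.5 and 13.9, 16.3 and 13.6 CPM in T497A (-0.06 ± 0.31) and at 7.71, 7.82 and 10.9 and 34.8, 13.7 and 29.4 CPM in wild type, and Sdc4, a heparan sulfate proteoglycan of the cell surface, at 14.7, 21.7 and 17.5 and 15.98, 15.4 and 19.2 CPM in T497A.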
